A study of Mus musculus with 21 samples.

Results

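Col1a1, Col1a2, Col3a1, Col5a2 and Fn1 were followed in the left-ventricular free wall of 21 mice by reads at the 3′ ends of their mRNAs. The members are the 3′ UTR intervals of the deposited table that lie, on the gene's strand, inside a window of the mouse genome (mm39) set for each gene. There were 83 such intervals among the 208307 of the table. Where intervals overlapped, the one with the most reads was kept, which left 68 members among 121259 non-overlapping intervals: 8 for Col1a1, 30 for Col1a2, 16 for Col3a1, 1 for Col5a2 and 13 for Fn1. Of the 68, 25 had no read in any library, and 1 interval per gene held 98.6% of all reads on the members. Those 5 intervals stand for the genes below.

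Col1a1 and Col1a2 encode the 2 chains of type I collagen, the main load-bearing fibre of the heart's connective tissue. Col3a1 encodes type III collagen, which forms finer and more compliant fibres together with type I. Col5a2 encodes a chain of type V collagen, which sits inside type I fibrils and helps to set their diameter. Fn1 encodes fibronectin, a glycoprotein that cells bind through integrins and on which collagen fibrils are laid down. In the heart these proteins come largely from fibroblasts, whose output of them goes up in fibrosis.

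Every mouse carried Myh6MCM Tg/0, a tamoxifen-inducible Cre recombinase under the cardiomyocyte promoter of Myh6, and every mouse received tamoxifen at 6 to 8 weeks of age, so the controls shared both the recombinase and the drug. At 2 weeks after tamoxifen the mice were given 4-thiouracil, and hearts were taken 6 hours later. The groups were Lmna F/F with Uprt Tg/0 (6 mice, 4 females and 2 males), Lmna +/+ with Uprt Tg/0 (8 mice, 4 of each sex), Lmna F/F without Uprt (4 mice, 2 of each sex) and Lmna +/+ without Uprt (3 mice, all male). Lmna encodes lamins A and C of the nuclear envelope, and F is the floxed allele that the recombinase acts on, so recombination is directed to cardiomyocytes. Uprt, uracil phosphoribosyltransferase, lets cells that carry it build 4-thiouracil into new RNA. After alkylation with iodoacetamide the built-in analogue reads as C in place of T, so a read with a T>C conversion (a T>C read) can come from RNA made after the injection, and also from sequencing errors, sequence variants or labelling without the transgene. No source used here says which promoter or cell type drives Uprt.

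Libraries held 25975911 to 51007428 reads on non-overlapping intervals, of which 3.08% to 5.93% were T>C reads and 23.7% to 33.5% were mitochondrial. The transcript IDs of the table could not be paired with gene names on the same build, so neither the level of Lmna nor markers of cardiomyocytes or other heart cells were looked up, and the labelled tissue was not checked. The amount of RNA in a bulk sample does not tell more fibroblasts apart from more RNA per fibroblast, which holds for every level below. All counts of calls refer to edgeR's quasi-likelihood test over all loci of the table at an adjusted p (Benjamini-Hochberg) under 0.05, and the error after a log2 value is its standard error. CPM is the usual reading of counts relative to library size, here after scaling by TMM, a method that takes most loci as equal between libraries. T>C CPM is the count of T>C reads over that same size of all reads. The tests of T>C reads were instead scaled by TMM on the T>C reads of each library. Their log2 fold changes are thus relative to all T>C reads and can differ from ratios of T>C CPM.

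Transcripts of the matrix genes were more abundant in Lmna F/F than in Lmna +/+ hearts. Among mice with Uprt, Col3a1 averaged 318.1 ± 74.5 CPM in Lmna F/F hearts and 110.5 ± 33.3 CPM in Lmna +/+ hearts (SD, n = 6 and 8), and among mice without Uprt 676.4 ± 449.4 CPM and 91.7 ± 5.22 CPM (SD, n = 4 and 3). With Uprt, 4 of the 5 genes were called higher in Lmna F/F, by 1.78 to 2.88 times in the ratio of mean CPM, against a background of 702 of 25254 loci called higher (2.78%) and 132 called lower (0.523%). Col1a2 was not called. In females alone none of the 5 was called, where 198 of 25135 loci were called higher. Without Uprt all 5 genes were called higher, by 3.45 to 7.37 times in the ratio of mean CPM, against 1109 loci called higher (4.39%) and 672 called lower (2.66%). That Lmna F/F group was uneven, as given below. In a fit of the mice without Uprt alone none of the 5 was called, where 9 of 22445 loci were called higher. The median change over all loci tested was 0.00 with Uprt and 0.02 without, on the log2 scale.

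**Figure D1:**
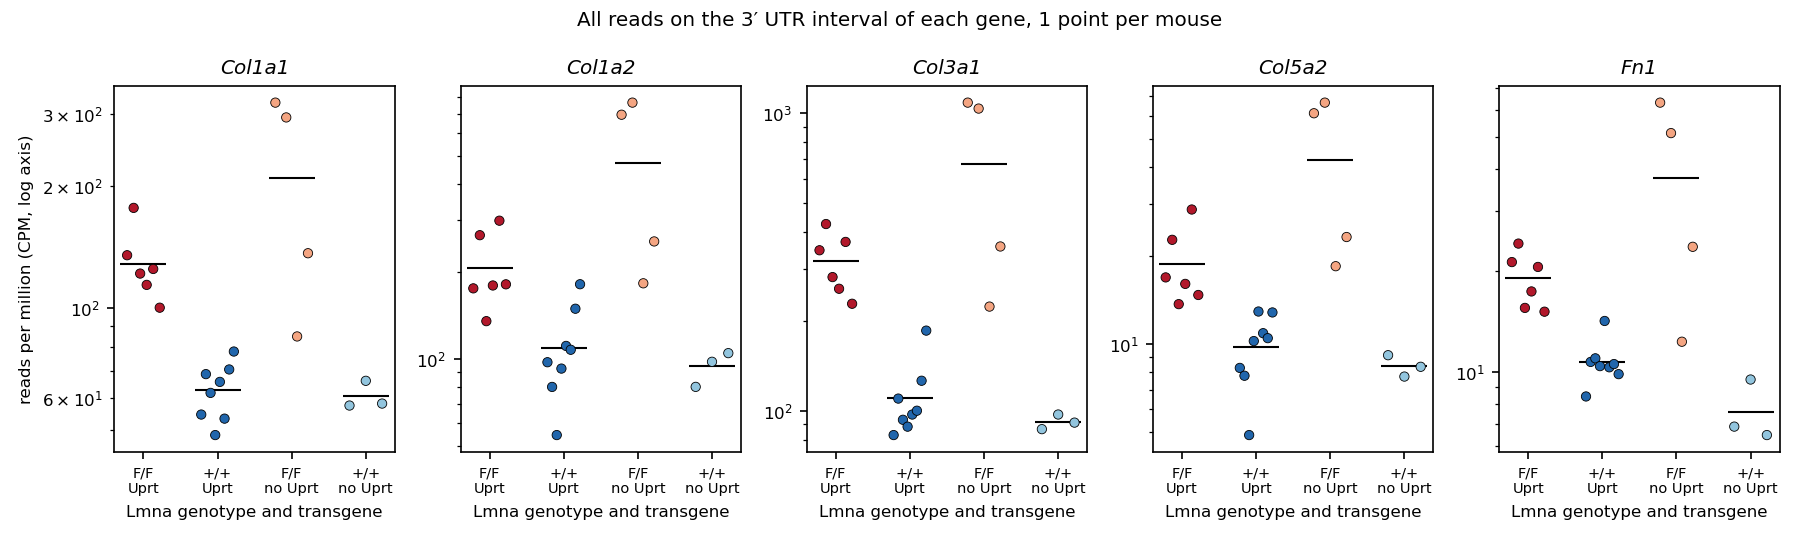
CPM on the 3′ UTR interval of each gene (log axis), 1 point per mouse, with a bar at the mean of each group; groups from left to right are Lmna F/F with Uprt, Lmna +/+ with Uprt, Lmna F/F without Uprt and Lmna +/+ without Uprt. Replicates 1 and 2 of the Lmna F/F group without Uprt lie above all others in every panel, and both Lmna +/+ groups lie low.

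The type I collagen chains are given first. The Col1a1 interval (chr11:94842446-94843868, plus strand, mm39) had between 100.1 and 176.3 CPM in Lmna F/F hearts with Uprt (median 123.1), against 48.6 to 78.1 CPM in Lmna +/+ hearts with Uprt (median 63.7). No mouse of one genotype reached the range of the other. The log2 fold change was 1.04 ± 0.20 (adjusted p = 0.00261). Without Uprt, Col1a1 stood at 320.4, 294.6, 85.0 and 136.3 CPM in the 4 Lmna F/F hearts, against 57.5, 66.1 and 58.1 CPM in the 3 Lmna +/+ hearts. The groups again did not overlap, and the lowest Lmna F/F heart lay well under the other 3. The log2 fold change was 1.78 ± 0.31 (adjusted p = 0.000945).

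The Col1a2 interval (chr6:4540663-4541544, plus strand) ranged from 135.0 to 299.4 CPM in Lmna F/F hearts with Uprt (median 180.0), against 54.7 to 180.9 CPM in Lmna +/+ hearts with Uprt (median 102.6). These ranges overlap: Lmna +/+ replicates 7 and 8, both female, had 149.0 and 180.9 CPM. The log2 fold change of 0.91 ± 0.27 was not called (adjusted p = 0.0555). Without Lmna +/+ Uprt replicate 8 it was 1.08 and called (adjusted p = 0.0220), and without Lmna F/F Uprt replicate 3 it was 1.01 and called (adjusted p = 0.0472). It was also called with library size alone (adjusted p = 0.0205), with only these 2 groups in the fit (0.0130) and in males alone (0.0413). The fit with no low-count filter called it too (9.8e-14), and the other 6 settings tried did not. Calls came more easily in that unfiltered fit. For the difference between the 2 Lmna effects it called 92 of 40938 loci higher and 293 lower, where the main fit called 0 of 25254. Its adjusted p for Col1a2 is therefore given only as a description. Without Uprt, Col1a2 had 693.5, 763.3, 182.3 and 254.0 CPM in Lmna F/F hearts, against 80.2, 97.8 and 104.8 CPM in Lmna +/+ hearts. Here the groups were separate, with a log2 fold change of 2.31 ± 0.42 (adjusted p = 0.00150).

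Type III collagen showed the largest change of the 5 genes in both comparisons. The Col3a1 interval (chr1:45387908-45388866, plus strand) ranged from 229.0 to 424.6 CPM in Lmna F/F hearts with Uprt (median 314.0), against 82.9 to 186.0 CPM in Lmna +/+ hearts with Uprt (median 98.6). The highest Lmna +/+ heart was replicate 8, and the next highest had 126.2 CPM. The log2 fold change was 1.52 ± 0.25 (adjusted p = 0.000498). Without Uprt, Col3a1 had 1087, 1038, 224.0 and 356.8 CPM in Lmna F/F hearts, against 86.7, 97.2 and 91.2 CPM in Lmna +/+ hearts. Replicates 1 and 2 of these Lmna F/F hearts stood far above the other 2, while the Lmna +/+ hearts lay close together. The log2 fold change was 2.88 ± 0.40 (adjusted p = 0.000228).

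The Col5a2 interval (chr1:45413481-45415243, minus strand) lies 24614 bases past the end of the Col3a1 interval, on the other strand. It had 13.7 to 28.7 CPM in Lmna F/F hearts with Uprt (median 16.4), against 4.90 to 12.9 CPM in Lmna +/+ hearts with Uprt (median 10.4). The lowest Lmna F/F heart lay just above the highest Lmna +/+ heart, and the log2 fold change was 0.97 ± 0.24 (adjusted p = 0.0226). Without Lmna F/F Uprt replicate 2 or 5 this call was lost (adjusted p = 0.0697 and 0.0915). Without Uprt, Col5a2 had 61.1, 66.4, 18.4 and 23.1 CPM in Lmna F/F hearts, against 9.16, 7.75 and 8.36 CPM in Lmna +/+ hearts. Every Lmna F/F heart lay well above the highest Lmna +/+ heart, and the log2 fold change was 2.44 ± 0.38 (adjusted p = 0.000454).

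The Fn1 interval (chr1:71624679-71625370, minus strand) was one of 7 overlapping intervals with the same reads. It had 15.1 to 24.1 CPM in Lmna F/F hearts with Uprt (median 18.9), against 8.43 to 14.2 CPM in Lmna +/+ hearts with Uprt (median 10.5). The ranges did not meet, and the log2 fold change was 0.87 ± 0.22 (adjusted p = 0.0259). Leaving out 1 mouse ended this call in 4 of 14 cases (Lmna F/F Uprt replicates 1 and 2, Lmna +/+ Uprt replicates 1 and 4), with adjusted p values of 0.0508 to 0.0858. Without Uprt, fibronectin mRNA stood at 63.3, 51.3, 12.3 and 23.5 CPM in Lmna F/F hearts, against 6.86, 9.47 and 6.47 CPM in Lmna +/+ hearts. All 4 Lmna F/F hearts were higher, although replicate 3 was close to the Lmna +/+ range, and the log2 fold change was 2.42 ± 0.35 (adjusted p = 0.000243).

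**Figure D2:**
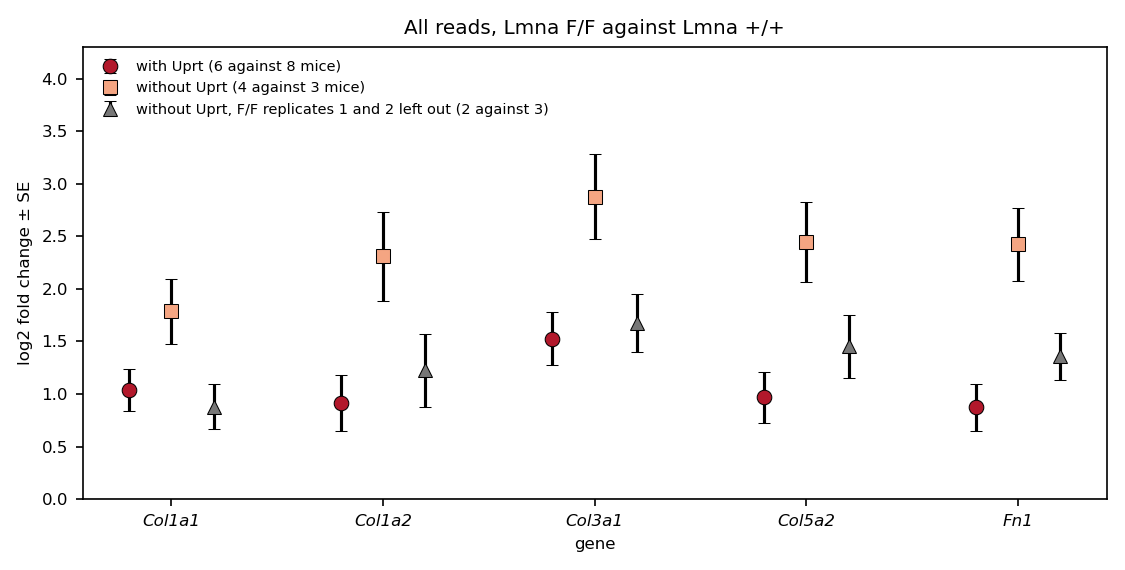
Log2 fold change of all reads, Lmna F/F over Lmna +/+, with its standard error, for mice with Uprt, for mice without Uprt, and for mice without Uprt after 2 of the 4 Lmna F/F hearts were left out. The changes without Uprt run from 1.78 to 2.88, those with Uprt from 0.87 to 1.52, and those without the 2 highest hearts from 0.88 to 1.68.

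The Lmna F/F group without Uprt was uneven. Its replicate 1 (male) and replicate 2 (female) had the 2 highest levels of all 21 mice for each of the 5 genes, and replicate 3 (female) had the lowest level of the group for each. With replicates 1 and 2 left out, a choice made after seeing the data, the log2 fold changes over Lmna +/+ were 0.88 for Col1a1, 1.22 for Col1a2, 1.68 for Col3a1, 1.45 for Col5a2 and 1.36 for Fn1. Of these, Col3a1, Col5a2 and Fn1 were still called (adjusted p = 0.00359, 0.0203 and 0.00389), and Col1a1 and Col1a2 were not (adjusted p = 0.0660 and 0.135). All 3 Lmna +/+ mice without Uprt were male, so the sex term in this comparison came from the groups that hold both sexes. All 5 were called with any 1 of the 7 libraries without Uprt left out. In the fit without replicates 1 and 2, 111 loci of the whole table were called higher and 12 lower. In a fit of the 7 libraries without Uprt alone, none of the 5 was called (adjusted p from 0.0874 to 0.109), and 9 loci of the table were called higher and 0 lower.

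For each gene the order of the group means was Lmna F/F without Uprt, Lmna F/F with Uprt, Lmna +/+ with Uprt, and Lmna +/+ without Uprt. The first 2 of these overlapped in range for every gene, and so did the last 2. In Lmna F/F hearts the log2 fold change of Uprt over none ran from -1.20 for Col1a2 to -0.70 for Col1a1, with no gene called (adjusted p from 0.183 to 0.256), where 4 loci of the table were called higher (0.0158%) and 3 lower (0.0119%). With replicates 1 and 2 of the mice without Uprt left out, the same values ran from -0.12 to 0.20. In Lmna +/+ hearts the log2 fold change of Uprt over none ran from 0.05 for Col1a1 to 0.62 for Fn1, and no gene was called (adjusted p from 0.688 to 0.997). Of all loci, 0 were called in either direction (0% higher, 0% lower), with 1861 at an unadjusted p under 0.05.

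The Lmna effect was smaller with Uprt than without it for each of the 5 genes, but the interaction was not called. The difference between the 2 log2 fold changes was -0.75 ± 0.35 for Col1a1, -1.40 ± 0.48 for Col1a2, -1.35 ± 0.45 for Col3a1, -1.47 ± 0.43 for Col5a2 and -1.55 ± 0.40 for Fn1. The adjusted p ran from 0.447 to 0.631. No locus of the table was called for the interaction by edgeR (0% higher, 0% lower), while 1972 passed 0.05 before adjustment. DESeq2 called 1 locus higher and 3 lower. With Lmna F/F no Uprt replicates 1 and 2 left out, the differences ran from -0.49 to 0.15.

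The other members had few reads. Outside the 5 main intervals 38 members had any read, and in loci, in which intervals of the same transcript ID are summed, the members formed 22. Of the 17 loci other than the main ones, 11 passed the filter on low counts and were tested, and 6 were not. With Uprt, 1 of the 11 was called higher in Lmna F/F hearts, where 2.78% of all loci were: the second most read Col3a1 locus (1734 reads over all libraries, most read interval chr1:45366970-45367023), with a log2 fold change of 1.90 (adjusted p = 0.00571). Without Uprt 5 of the 11 were called higher, where 4.39% of all loci were. They were that locus (adjusted p = 0.00183), 2 more of Col3a1 (3.37 and 4.07), 1 of Col1a1 (2.49) and 1 of Fn1 (2.43). None of the 11 was called lower. A locus with few reads can pass the filter only through the group where it is high, so these counts are a description.

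Across the 21 libraries the 5 genes moved together: Pearson's r of log2(CPM + 0.5) for the 10 pairs lay between 0.89 (Col1a2 and Fn1) and 0.99 (Col1a1 and Col3a1). These correlations hold the difference between genotypes and the 2 high hearts. Within the 6 Lmna F/F hearts with Uprt r lay between 0.47 and 0.96, and within the 8 Lmna +/+ hearts with Uprt between -0.09 (Col1a2 and Fn1) and 0.86 (Col1a2 and Col5a2). In both groups Col1a2 was closest to Col5a2 (0.96 and 0.86), and Col1a1 was closest to Col3a1 (0.90 and 0.81). Outside the members, the 2 loci whose log2 CPM followed the mean of the 5 genes most closely over the 21 libraries lay at chr14:69930569-69933283 (plus strand, r = 0.967) and chr10:77401012-77401542 (plus strand, r = 0.966). The first averaged 23.2 CPM in Lmna F/F hearts with Uprt, 11.8 in Lmna +/+ with Uprt, 48.7 in Lmna F/F without Uprt and 10.1 in Lmna +/+ without Uprt. The second averaged 4.25, 1.64, 8.03 and 1.39 CPM in the same order of groups.

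Promoter sequence was at hand for Col1a2 and Col3a1, 2 genes whose transcripts moved together, and is shown for these from RefSeq (GRCm38.p6, not the build of the counts). Each run covers 250 bases before the start of the gene and 50 after it, at chr6:4505368-4505667 for Col1a2 and chr1:45311288-45311587 for Col3a1, both on the plus strand. Capitals mark 4 motifs on either strand: the TATA box with the letters TATAAA, the CCAAT box with the letters CCAAT, the GC box core with the letters GGGCGG, and the SMAD core with the letters CAGAC.

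Col1a2: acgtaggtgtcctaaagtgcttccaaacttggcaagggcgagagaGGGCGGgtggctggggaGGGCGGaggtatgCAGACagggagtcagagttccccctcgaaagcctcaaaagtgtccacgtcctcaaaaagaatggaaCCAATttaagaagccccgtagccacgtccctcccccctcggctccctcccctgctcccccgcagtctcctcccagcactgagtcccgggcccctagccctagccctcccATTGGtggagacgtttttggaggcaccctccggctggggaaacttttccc
Col3a1: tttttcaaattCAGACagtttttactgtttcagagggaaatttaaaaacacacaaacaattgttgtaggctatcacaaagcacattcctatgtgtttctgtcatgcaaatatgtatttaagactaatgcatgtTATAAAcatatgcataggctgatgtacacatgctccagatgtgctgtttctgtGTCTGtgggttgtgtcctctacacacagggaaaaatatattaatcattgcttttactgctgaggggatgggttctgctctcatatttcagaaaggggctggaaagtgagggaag

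The Col1a2 run held the letters of the CCAAT box, which binds the factor NF-Y, on both strands. Counted from the start of the gene, these matches lay at -109 to -105 and at 0 to 4. It also held the GC box core, which binds Sp1, at 2 places and the SMAD core, which binds SMAD proteins of TGF-β signalling, at 1 place. The Col3a1 run held the letters TATAAA at 1 place, -117 to -112 from the start of the gene. It held the SMAD core at 2 places, once on each strand, and had no match for the other motifs. No marked matches overlapped.

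Among 32851 promoters of the same length, 13.6% held the TATA box letters on either strand, 37.4% the CCAAT box, 35.7% the GC box core and 49.6% the SMAD core. A match of letters is not a measured binding site.

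A T>C read can come from new RNA but need not, and new RNA can also give reads without a conversion, so T>C reads are given here as converted reads. With Uprt, T>C reads of Col1a2 and Col3a1 were called higher in Lmna F/F hearts, Col1a1 and Col5a2 were not called, and Fn1 had too few to be tested. Of 10213 loci tested, 45 were called higher (0.441%) and 7 lower (0.0685%). Col3a1 had 40.7 to 74.9 T>C CPM in Lmna F/F hearts with Uprt (median 53.6), against 14.3 to 31.0 in Lmna +/+ hearts with Uprt (median 18.6). The groups did not overlap, and the log2 fold change was 1.46 ± 0.20 (adjusted p = 0.000708). Col1a2 had 6.62 to 11.6 T>C CPM in Lmna F/F hearts, against 3.70 to 5.77 in Lmna +/+ hearts. These ranges were separate too, although those of all Col1a2 reads were not, and the log2 fold change was 0.95 ± 0.16 (adjusted p = 0.00612).

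Col1a1, the other chain of the same fibre, had 12.5 to 17.0 T>C CPM in Lmna F/F hearts with Uprt (median 13.1), against 11.8 to 16.9 in Lmna +/+ hearts with Uprt (median 13.8). The ranges overlapped almost fully, with a log2 fold change of 0.01 ± 0.15 (adjusted p = 0.995). Col5a2 had 11 to 29 T>C reads per library in Lmna F/F hearts with Uprt, against 3 to 15 in Lmna +/+ hearts, and its log2 fold change of 0.97 ± 0.47 was not called (adjusted p = 0.703). For Fn1 the libraries with Uprt held 3 to 18 T>C reads each in Lmna F/F hearts, against 1 to 10 in Lmna +/+ hearts, and it was not tested.

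Without Uprt none of the 4 genes tested was called in T>C reads, where 3 of 7876 loci were called higher (0.0381%) and 0 lower (0%), with 646 at an unadjusted p under 0.05 and 73 called higher and 10 lower by DESeq2. Col1a2 had 1381, 1171, 239 and 650 T>C reads in Lmna F/F hearts, against 145, 248 and 250 in Lmna +/+ hearts. All but replicate 3 of the Lmna F/F hearts lay above the Lmna +/+ values. The log2 fold change was 2.34 ± 0.62 (adjusted p = 0.369), and DESeq2 called it (adjusted p = 0.0248). Col3a1 had 1557, 7439, 1570 and 2997 T>C reads in Lmna F/F hearts, against 127, 719 and 769 in Lmna +/+ hearts. Each Lmna F/F heart was higher, with a log2 fold change of 2.08 ± 0.64 (adjusted p = 0.440). For Col5a2 the log2 fold change was 2.05 ± 0.81 (adjusted p = 0.555), and for Col1a1 it was 0.04 ± 0.32 (adjusted p = 0.993). Fn1, again not tested, had 22, 51, 6 and 13 T>C reads in Lmna F/F hearts, against 3, 4 and 6 in Lmna +/+ hearts. Its mean T>C CPM was 0.553 in Lmna F/F and 0.104 in Lmna +/+ hearts, and each Lmna F/F heart lay above each Lmna +/+ heart on that scale.

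**Figure D3:**
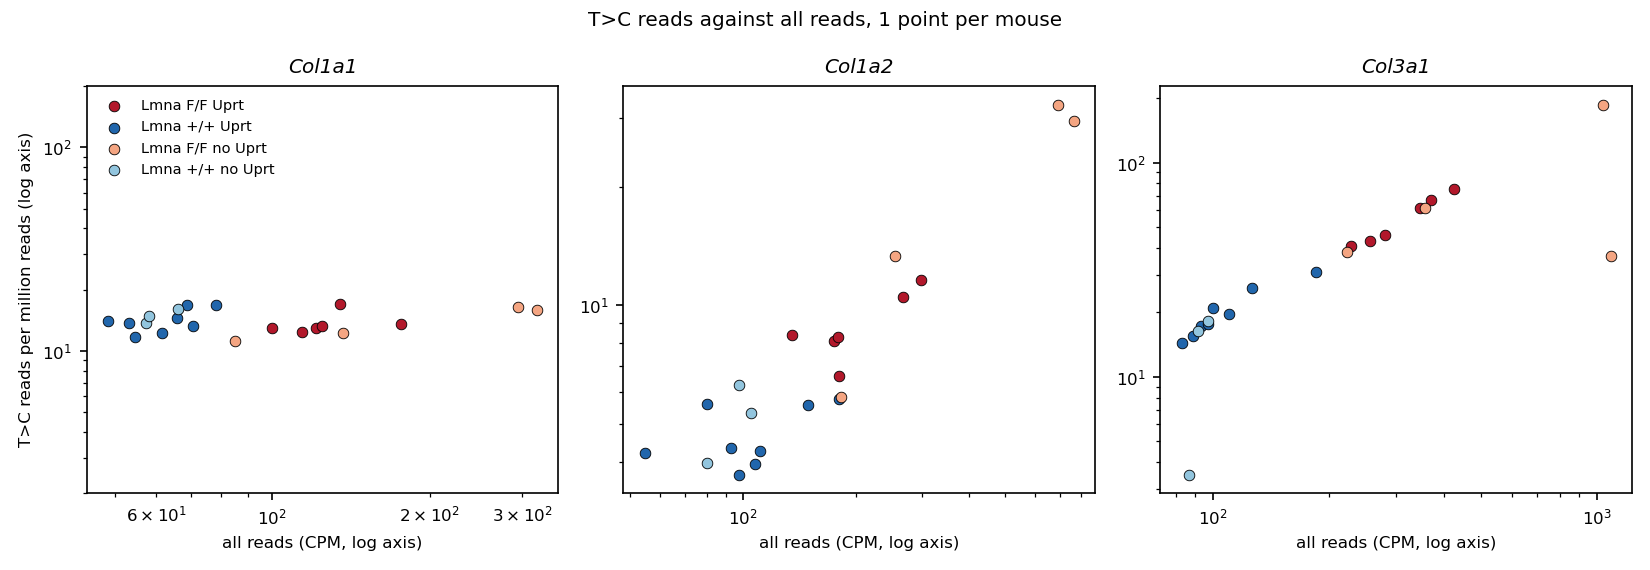
T>C CPM against CPM of all reads for Col1a1, Col1a2 and Col3a1, 1 point per mouse and both axes logarithmic. T>C reads of Col1a1 stay between 11.2 and 17.0 T>C CPM while its reads run from 48.6 to 320.4 CPM. For the other genes the points climb together, except 2 mice in Col3a1 that lie low in T>C CPM for their level of all reads.

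The T>C reads of Col1a1 varied little between libraries. They numbered 468 to 602 in Lmna F/F hearts with Uprt, 325 to 571 in Lmna +/+ with Uprt, 458 to 677 in Lmna F/F without Uprt and 502 to 697 in Lmna +/+ without Uprt. Its reads in the same libraries ran from 1269 to 13635. The coefficient of variation over the 21 libraries was 15.9% for T>C CPM and 80.3% for all reads. Among 1812 intervals with a mean of at least 100 T>C reads the median coefficients were 38.8% and 16.3%, and 96.7% of those intervals varied more than Col1a1 in T>C reads and 0.773% in all reads. The ratio of T>C conversions to T>C reads was also higher for Col1a1. It was 1.47 to 1.69 by library, against 0.910 to 1.05 for Col1a2 and 1.00 to 1.02 for Col3a1. Values under 1 show that the 2 counts do not cover quite the same reads or bases, so the ratio only approximates conversions per T>C read. Over all libraries this ratio was 1.56 for Col1a1, against a median of 1.06 for the 1812 intervals, 72 of which (3.97%) had a higher one. Reads of Col1a1 without a conversion averaged 114.9 ± 25.7 CPM in Lmna F/F and 48.5 ± 8.95 CPM in Lmna +/+ hearts with Uprt (SD, n = 6 and 8), and 195.1 ± 113.4 CPM and 45.7 ± 3.83 CPM without Uprt (SD, n = 4 and 3).

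The T>C share, the percentage of a gene's reads that are T>C reads, was called lower for Col1a1 and for no other of the 4 genes tested. It is a ratio to reads, and the T>C CPM of Col1a1 did not follow its reads: highest over lowest of 21 libraries was 1.52 for T>C CPM and 6.59 for CPM of all reads. Whether T>C reads of Col1a1 come from new RNA was not tested. With Uprt the share was 7.69% to 13.0% in Lmna F/F hearts (mean 10.9% ± 1.90, SD, n = 6), against 18.7% to 28.8% in Lmna +/+ hearts (mean 22.9% ± 3.28, SD, n = 8). Every Lmna F/F heart lay under every Lmna +/+ heart. The log2 odds ratio was -1.23 ± 0.16 (adjusted p = 0.00377). With each of the 14 mice left out in turn it lay between -1.31 and -1.15 and was called each time. Of 10213 loci tested for the share, 2 were called higher (0.0196%) and 1 lower (0.00979%), which was Col1a1. Measured as conversions per 100 covered T, Col1a1 had 0.702 ± 0.123 in Lmna F/F and 1.57 ± 0.271 in Lmna +/+ hearts with Uprt (SD, n = 6 and 8). The difference of -0.867 had p = 0.000666 by exact permutation over mice (two-sided), which is the lower limit for 6 and 8 mice, in 1 of 25 such tests.

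Without Uprt the Col1a1 share was 4.97%, 5.61%, 13.2% and 8.95% in Lmna F/F hearts, against 24.0%, 24.2% and 25.5% in Lmna +/+ hearts. The groups were well apart, but the log2 odds ratio of -2.18 ± 0.44 was not called (adjusted p = 0.999), and neither was any other of 7876 loci (0% higher, 0% lower; 231 at an unadjusted p under 0.05). In conversions per 100 covered T the difference was -1.11, with p = 0.0571 by the same exact permutation, which is the lower limit for 4 and 3 mice. A test of the difference between the 2 settings was not run.

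For the remaining genes the share was not called. With Uprt, Col1a2 had 4.49% ± 0.941 in Lmna F/F and 4.70% ± 1.69 in Lmna +/+ hearts, a log2 odds ratio of -0.02 ± 0.23. Col3a1 had 17.4% ± 0.659 in Lmna F/F and 18.4% ± 1.55 in Lmna +/+ hearts, a log2 odds ratio of -0.09 ± 0.12. Col5a2 had 2.30% ± 0.620 in Lmna F/F and 2.40% ± 1.30 in Lmna +/+ hearts, a log2 odds ratio of 0.05 ± 0.28 (SD, n = 6 and 8 in each case). None of the 3 was called by edgeR (adjusted p of 1.00 for each). Fn1, which was not tested, had 1.26% ± 0.606 in Lmna F/F and 1.11% ± 0.669 in Lmna +/+ hearts.

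**Figure D4:**
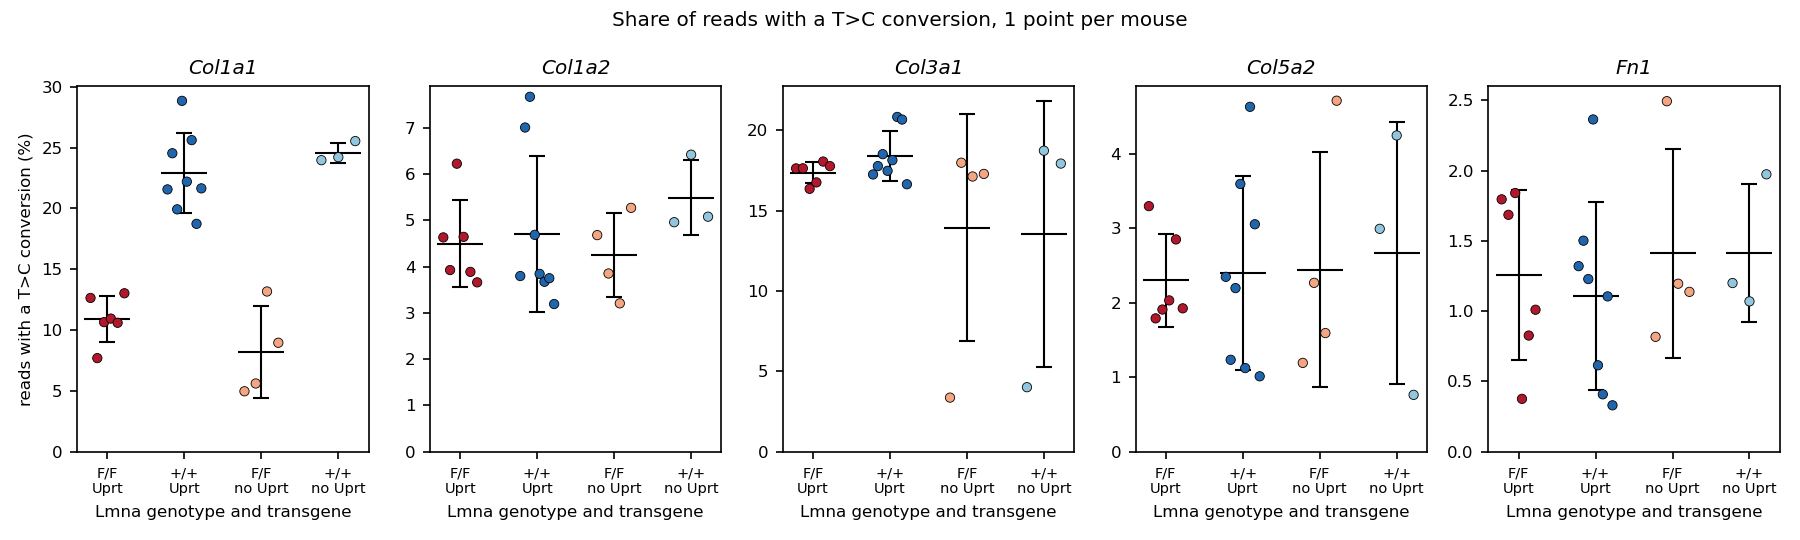
Percentage of reads with a T>C conversion for each gene, 1 point per mouse, with the mean and SD of each group; groups run from Lmna F/F with Uprt, Lmna +/+ with Uprt and Lmna F/F without Uprt to Lmna +/+ without Uprt. Col1a1 is lower in both Lmna F/F groups, and within each genotype the ranges with and without Uprt overlap in each panel.

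The T>C share was called higher with the transgene at most loci tested, but at none of the 5 genes. Loci entered this test by their T>C counts, which can be met in the groups with Uprt alone. The shares of calls and the median thus describe the loci tested. Of 12991 loci tested, 7321 were called higher with Uprt (56.4%) and 25 lower (0.192%), and the log2 odds ratio had a median of 1.15 across the loci. For the 5 genes the log2 odds ratio was 0.28 ± 0.20 for Col1a1, -0.04 ± 0.18 for Col1a2, 0.58 ± 0.31 for Col3a1, 0.11 ± 0.36 for Col5a2 and -0.26 ± 0.38 for Fn1, with adjusted p values from 0.109 to 0.868. The intervals of 2 SE around these values lie below the median of the loci tested for Col1a1, Col1a2, Col5a2 and Fn1, and reach it for Col3a1. In Lmna +/+ hearts the Col1a2 share was 4.70% ± 1.69 with Uprt and 5.49% ± 0.810 without (SD, n = 8 and 3), and the Fn1 share 1.11% ± 0.669 and 1.41% ± 0.489. Set against each library's own overall T>C share, the log2 odds ratio of Col1a2 was -0.54 (adjusted p = 0.00779), called lower. On that scale 266 of the loci were called lower (2.05%) and 4342 higher (33.4%), and the median log2 odds ratio was 0.66. The log2 odds ratios of the other 4 genes on that scale lay between -0.76 and 0.09 without a call.

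Conversion was also seen in mice that do not carry the transgene. Without Uprt, the Col1a2 share was 4.25% ± 0.908 in Lmna F/F and 5.49% ± 0.810 in Lmna +/+ hearts, and that of Col5a2 was 2.44% ± 1.58 and 2.67% ± 1.77 (SD, n = 4 and 3). In Lmna +/+ hearts the Col1a1 share was 22.9% ± 3.28 with Uprt and 24.6% ± 0.845 without (SD, n = 8 and 3).

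Col3a1 held to a narrow share in 19 of 21 mice, from 16.4% to 20.8%. The 2 others were Lmna F/F no Uprt replicate 1 with 3.37% (1557 of 46248 reads) and Lmna +/+ no Uprt replicate 1 with 4.02% (127 of 3163 reads), both male. Their shares of Col1a1, Col1a2, Col5a2 and Fn1 were 4.97%, 4.68%, 1.19% and 0.817% in the Lmna F/F mouse and 24.0%, 4.96%, 2.99% and 1.20% in the Lmna +/+ mouse. With both mice left out, a choice made after seeing the data, the log2 odds ratio of Uprt over none for Col3a1 was 0.00 (adjusted p = 0.987), against 0.58 with them.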

How the data were processed

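Heart RNA of 21 mice (free wall of the left ventricle) was sequenced from the 3′ ends of mRNAs with the strand kept, after alkylation (SLAM-seq chemistry), per the labels' protocols. The deposited tables have the column layout of SlamDunk, per the file headers: each row is a 3′ UTR interval with read counts and counts of T>C reads, the conversion rate as a fraction (it equals T>C conversions over covered T), and library-scaled values (CPM) given as a score. The genome build was mm39, per the submitters' processing notes; no source used here states tool versions.

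From the counts, overlapping intervals were reduced to the one with the most reads, and intervals of one transcript ID were summed to 61903 loci. Tests used the quasi-likelihood method of edgeR 4.0.16 (R 4.3.3) on group means plus sex after TMM scaling, over loci passing filterByExpr at a minimum count of 10, with all 21 libraries in the fit for reads and for the effect of Uprt on shares, and otherwise the 14 with or the 7 without Uprt, with Benjamini-Hochberg adjustment over all loci. T>C shares were fitted as T>C against unconverted reads of the same library. The standard error is the log2 value over the square root of F. Conversions per covered T were compared by exact permutation over mice. DESeq2 1.42.0, other scalings, filters, covariates and left-out libraries were alternatives. Each library is 1 mouse, and p-values measure the spread between mice. In the edgeR tests that spread was shared by all groups in a fit, also where 1 group was more uneven than the others. All libraries carry the same pool label, so the labels gave no batch to fit. In sample order the earliest libraries were all from mice with Uprt, so order and Uprt are partly tied. An effect of order was not tested. Scripts were tested on simulated data.

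The members and lists were chosen with earlier results of these data known. All members are named by gene and position, and the 2 loci most like them by Pearson's r over 21 libraries among loci with a mean of at least 1 CPM. Lists of other matrix genes and of cell type markers were not run, because no table of the files' build paired transcript IDs with names.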

Additional observations from a re-analysis of the deposited data

Results flagged for a closer look

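Of 45 sets of values (5 genes by measure, in the groups of 4 to 8 mice), 4 had a mouse far from the rest of its group, where chance alone gives about 1 in 20. Col3a1 stood at 186.0 CPM in Lmna +/+ Uprt replicate 8, with the next highest at 126.2 CPM. Fn1 stood at 14.2 CPM in Lmna +/+ Uprt replicate 5, with the next highest at 10.95 CPM. The Col3a1 T>C share was 3.37% in Lmna F/F no Uprt replicate 1, with the next lowest at 17.1%. In the same mouse Col3a1 had 0.122 conversions per 100 covered T, with the next lowest at 0.611. The last 2 values measure the same reads and are not independent.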

How the results depend on the processing

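No paired analysis was possible because replicate numbers follow accession order and name no shared litter, day or mouse. Of 731 values of single genes under alternatives, 651 were counted as kept, 19 lost the call, 17 gained one and 44 changed sign. Kept means the same direction and, where an adjusted p was at hand, the same side of the threshold. Permutation tests with 1 mouse left out were judged by direction alone. Mean levels of the 5 genes, which have no threshold, counted as kept when they moved by less than 1 SD. With Uprt, 4 of the 5 genes were called higher in all reads, against 0 in females alone, and 2 to 5 when 1 mouse was left out (the lowest count without Lmna F/F Uprt replicate 2). Over all loci, 702 higher and 132 lower became 1410 and 27 with library size alone, where the median of all loci stood at 0.17 in log2, against 0.00, 1017 and 370 with DESeq2, 1185 and 604 with no low-count filter, 866 and 402 with only these groups in the fit, and 198 and 4 in females or 198 and 8 in males alone. Without Uprt, 1109 higher and 672 lower became 1513 and 288 with library size alone (median moved to 0.18), and ran from 391 and 99 (without Lmna F/F no Uprt replicate 1) to 1476 and 1095 (without replicate 3) with 1 mouse left out. The 5 genes called there became 0 with only these groups in the fit and 3 with Lmna F/F no Uprt replicates 1 and 2 left out. In T>C reads without Uprt, DESeq2 called 1 and no low-count filter 2 of the genes, against 0. Over all loci they called 73 of 7876 and 195 of 23304 higher, against 3 of 7876. T>C reads with Uprt gave 85 higher and 14 lower with DESeq2 and 134 and 41 with no low-count filter, against 45 and 7. For the interaction, no low-count filter called 5 genes, against 0, with 92 of 40938 loci called higher and 293 lower, against 0 of 25254. Leaving out 1 mouse called 0 to 1 gene. That was Fn1 at -1.80 (adjusted p = 0.0457) without Lmna F/F no Uprt replicate 3, where 0 of 25130 loci were called higher and 2 lower. For the share with Uprt over none, leaving out 1 mouse called 0 to 1 gene (Col1a1 at 0.47, adjusted p = 0.0420, without Lmna F/F no Uprt replicate 3), and the offset by read type gave 4342 loci higher and 266 lower.

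Signs changed mostly where values lay near 0, and the cause was not tested. Col1a1 T>C reads with Uprt became -0.039 without the sex term, -0.00079 without mitochondrial loci and -0.063 to 0.088 with 1 mouse left out. Without Uprt they became -0.017 with no low-count filter, -0.023 without the sex term, -0.46 without both high mice and -0.46 to 0.41 with 1 mouse left out. Shares with Uprt ran from -0.11 to 0.14 for Col1a2 and -0.10 to 0.20 for Col5a2 with 1 mouse left out, and that of Col5a2 became -0.025 without the sex term. Shares without Uprt ran from -1.94 to 0.64 for Col3a1 and -1.08 to 0.97 for Col5a2 with 1 mouse left out. They became 0.072 for Col3a1 without the sex term, and 0.64 for Col3a1 and 0.99 for Col5a2 without both high mice. Without those mice the Col1a1 interaction became 0.15, and the effect of Uprt on reads in Lmna F/F became 0.20 for Col1a1, 0.12 for Col3a1 and 0.15 for Fn1. For the share with Uprt over none, the offset by read type gave -0.21 for Col1a1 and -0.39 for Col5a2. Col5a2 became -0.0070 without the sex term and -0.037 without both mice with a low Col3a1 share. With 1 mouse left out this share ran from -0.13 to 0.030 for Col1a2, -0.074 to 0.27 for Col5a2 and -0.44 to 0.041 for Fn1. Fn1 and Col5a2 had 1 to 60 T>C reads per library, which limits their precision.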
